A study of Rattus norvegicus with 12 samples.

Results

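Genes of liver sinusoidal endothelial cells were followed in whole liver tissue. Of these 10 genes, 4 respond to blood flow (Klf2, Klf4, Nos3 and Thbd) and 6 mark the cells' identity (Stab1, Stab2, Lyve1, Clec4g, Pecam1 and Kdr). Which cells of the liver their RNA came from was not measured. The genes were chosen by symbol, and 9 of the 10 symbols were found among the 33744 genes of the deposited table. Pecam1 was not matched. A row without a symbol, described in the table as PECAM-1 (CD31), a junction protein of endothelial and blood cells, is given beside the members and is not counted among them. All 9 members passed the filter on low counts, as did 13687 genes in all.

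RNA-seq was done on whole liver tissue of male Sprague Dawley rats aged 6 to 8 weeks, with 3 livers in each of 4 groups. Warm ischemia in the body for 30 min after cardiac arrest was common to all 12 livers, so none is an uninjured liver. The HOPE 1 h livers then had 3 h of cold storage and 1 h of hypothermic machine perfusion with oxygen, at a PO2 of 60 to 80 kPa, through the portal vein. The HMP 1 h livers had the same storage and the same perfusion without added oxygen, both at 4 °C and 1.2 mL/min. Static cold storage for 4 h, with no machine perfusion, followed ischemia in the SCS 4 h livers, and the WI 30 min livers had warm ischemia alone. Perfused livers (HOPE and HMP) therefore saw machine-driven flow, and unperfused livers (SCS and WI) did not. The study's methods describe a flush at procurement without naming groups. They also describe the WI livers as having no other intervention, so whether these were flushed is not certain. No group had flow without cold storage, and the flow was cold. Flow, time after death and cold therefore cannot be told apart where perfused livers are compared with WI livers. That holds for perfused against unperfused livers, since the WI livers are among the unperfused. Neither SCS nor WI livers had machine flow, and between these groups time and cold cannot be told apart.

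Endothelial cells sense the drag of flowing fluid on their surface. In arteries and in cultured endothelium, steady flow acts through the kinases MEKK3, MEK5 and ERK5 and the factors of the MEF2 family to raise the Kruppel-like factors KLF2 and KLF4. These in turn raise nitric oxide synthase (Nos3) and thrombomodulin (Thbd) and lower adhesion and clotting genes. In the liver, sinusoidal endothelial cells have no basement membrane, take up waste through the scavenger receptors stabilin-1 and stabilin-2 (Stab1, Stab2), and carry the hyaluronan receptor LYVE-1, the lectin encoded by Clec4g and the VEGF receptor encoded by Kdr. In bulk tissue, fewer cells of a type and less RNA per cell cannot be told apart, and the identity members were measured so that the flow-responsive members could be read against them.

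Total counts were 15262961 to 18343167 per liver. HMP liver 1 and HOPE liver 3 stood apart from the other 10 in the genes of non-parenchymal cells. They also had the 2 highest shares of counts on mitochondrial genes, 18.7% in HMP liver 1 and 10.2% in HOPE liver 3. The other 10 livers had 4.79% to 9.20%. Results that rest on these 2 livers are given with and without them.

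The DNA just before the RefSeq start of 3 members is shown because it holds different numbers of CACCC, the core recognised by Kruppel-like factors. Whether transcription begins at these starts in liver was not checked. A RefSeq promoter (assembly GRCr8) was at hand for 7 of the 9 members, Klf2 and Thbd having no entry. Each line gives the 250 bases before the start, 5′ to 3′ on the gene's strand, with CACCC or its complement GGGTG in capitals.
Klf4: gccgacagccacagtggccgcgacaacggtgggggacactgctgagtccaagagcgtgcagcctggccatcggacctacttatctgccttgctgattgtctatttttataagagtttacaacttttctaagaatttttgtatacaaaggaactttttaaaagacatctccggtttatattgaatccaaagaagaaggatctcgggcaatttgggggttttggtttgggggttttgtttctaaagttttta
Nos3: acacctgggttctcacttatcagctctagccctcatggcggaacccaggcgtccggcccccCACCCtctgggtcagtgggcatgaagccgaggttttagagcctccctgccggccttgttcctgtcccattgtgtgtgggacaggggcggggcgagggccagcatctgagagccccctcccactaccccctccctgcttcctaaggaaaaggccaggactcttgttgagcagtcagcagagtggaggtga
Stab1: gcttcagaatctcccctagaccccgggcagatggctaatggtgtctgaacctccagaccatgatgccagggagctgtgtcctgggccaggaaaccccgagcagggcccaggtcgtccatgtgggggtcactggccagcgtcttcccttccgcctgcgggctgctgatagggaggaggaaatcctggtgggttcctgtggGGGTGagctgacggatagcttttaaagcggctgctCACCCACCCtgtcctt
In GRCr8 these windows are chr5:75078593-75078842, chr4:11706582-11706831 and chr16:6367360-6367609, all on the minus strand. The Klf4 window held 0 CACCC on either strand, the Nos3 window 1 and the Stab1 window 3, of which 2 share a base. Of the 7 windows, 5 held at least 1 (Nos3, Stab1, Stab2, Clec4g and Kdr), against 49.2% of 33469 promoters of the same length. GGAA, the core of the ETS factors, was in all 7 windows and in 93.2% of all promoters. These are matches of letters, and binding was not measured.

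The levels are given first per length, as the authors' FPKM, since only that scale compares genes. Averaged over the 12 livers, Lyve1 stood at 36.8 ± 13.9 FPKM (SD, n = 12), Clec4g at 27.7 ± 15.6 and Kdr at 19.2 ± 7.53. Stab2 followed at 9.57 ± 3.76, Klf2 at 8.70 ± 4.46 and Stab1 at 5.62 ± 2.16. Thbd stood at 3.48 ± 1.76, Klf4 at 1.33 ± 0.730 and Nos3 at 1.08 ± 0.495 FPKM. Each gene in this order lay within 1 SD of its own above the next, except Kdr over Stab2 and Thbd over Klf4, so the identity members were in general above the flow-responsive ones, with Klf2 among the stabilins. The counts behind the lowest 2 members were small, 24 to 123 per liver for Klf4 and 52 to 233 for Nos3.

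All further levels are CPM, counts divided by the library total after TMM scaling, which compares livers and not genes. Klf2 (chr16:19223087-19225037 in Rnor_6.0, minus strand) is a Kruppel-like factor that steady flow raises in cultured endothelium. It was at 4.27, 5.33 and 19.6 CPM in HOPE livers 1 to 3 and at 16.2, 8.50 and 10.6 CPM in HMP livers, against 7.01, 10.3 and 9.95 CPM in SCS livers and 5.47, 3.69 and 9.73 CPM in WI livers. HOPE livers 1 and 2 were therefore below every HMP and SCS liver, whereas HOPE liver 3 was the highest of the 12. Klf4 (chr5:72283313-72287669) overlaps Klf2 in its targets. It was at 1.37, 2.55 and 6.45 CPM in HOPE livers and at 6.80, 3.37 and 3.09 CPM in HMP livers, against 2.64, 2.65 and 3.34 CPM in SCS livers and 2.03, 1.5 and 1.99 CPM in WI livers. All HMP livers and all SCS livers lay above all WI livers, and the HOPE livers spanned nearly the whole range.

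Nos3 (chr4:7320668-7342410) makes nitric oxide in endothelium and widens vessels. It was at 2.96, 7.35 and 12.2 CPM in HOPE livers and at 9.48, 4.06 and 4.28 CPM in HMP livers, against 5.83, 5.72 and 6.22 CPM in SCS livers and 3.61, 3.62 and 4.59 CPM in WI livers. The SCS livers lay closely together above all WI livers, while each perfused group had livers below and above them. Thbd (chr3:142748674-142752325) encodes thrombomodulin, which turns thrombin towards the anticoagulant protein C. It was at 6.38, 8.0 and 26.2 CPM in HOPE livers and at 23.0, 17.3 and 7.57 CPM in HMP livers, against 9.25, 11.3 and 16.2 CPM in SCS livers and 10.6, 6.37 and 11.1 CPM in WI livers. Here the groups overlapped throughout.

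The identity members showed the same pair of high livers. Stab2 (chr7:27369853-27552078) was at 53.4, 83.6 and 141 CPM in HOPE livers and at 114, 56.9 and 48.6 CPM in HMP livers, against 55.2, 78.3 and 86.1 CPM in SCS livers and 46.7, 49.4 and 64.5 CPM in WI livers. Lyve1 (chr1:175663266-175676699) was at 87.2, 139.8 and 233 CPM in HOPE livers and at 148, 85.1 and 101 CPM in HMP livers, against 87.2, 105 and 127 CPM in SCS livers and 87.8, 80.6 and 84.6 CPM in WI livers. HOPE livers 2 and 3 were above all SCS and WI livers in Lyve1, and HOPE liver 1 was level with SCS liver 1. Kdr (chr14:34727623-34787183) was at 88.3, 144 and 208 CPM in HOPE livers and at 232, 94.7 and 98.3 CPM in HMP livers, against 96.4, 113 and 115 CPM in SCS livers and 85.7, 86.8 and 104 CPM in WI livers. Clec4g (chr12:2273941-2277169) was at 18.9, 23.6 and 30.1 CPM in HOPE livers and at 60.04, 15.8 and 16.6 CPM in HMP livers, against 21.0, 25.9 and 24.7 CPM in SCS livers and 21.4, 12.3 and 7.61 CPM in WI livers. Stab1 (chr16:7222067-7250924) ran from 29.9 to 74.0 CPM in HOPE livers and from 29.4 to 68.5 CPM in HMP livers, against 30.6 to 41.6 CPM in SCS livers and 24.3 to 37.7 CPM in WI livers. The PECAM-1 row (chr10:94850761-94886248) was at 15.5, 22.5 and 35.6 CPM in HOPE livers and at 34.7, 10.9 and 14.3 CPM in HMP livers, against 11.7, 14.4 and 21.2 CPM in SCS livers and 14.2, 13.4 and 14.3 CPM in WI livers. The positions are those of Rnor_6.0, and of the members only Kdr lies on the plus strand.

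**Figure D1:**
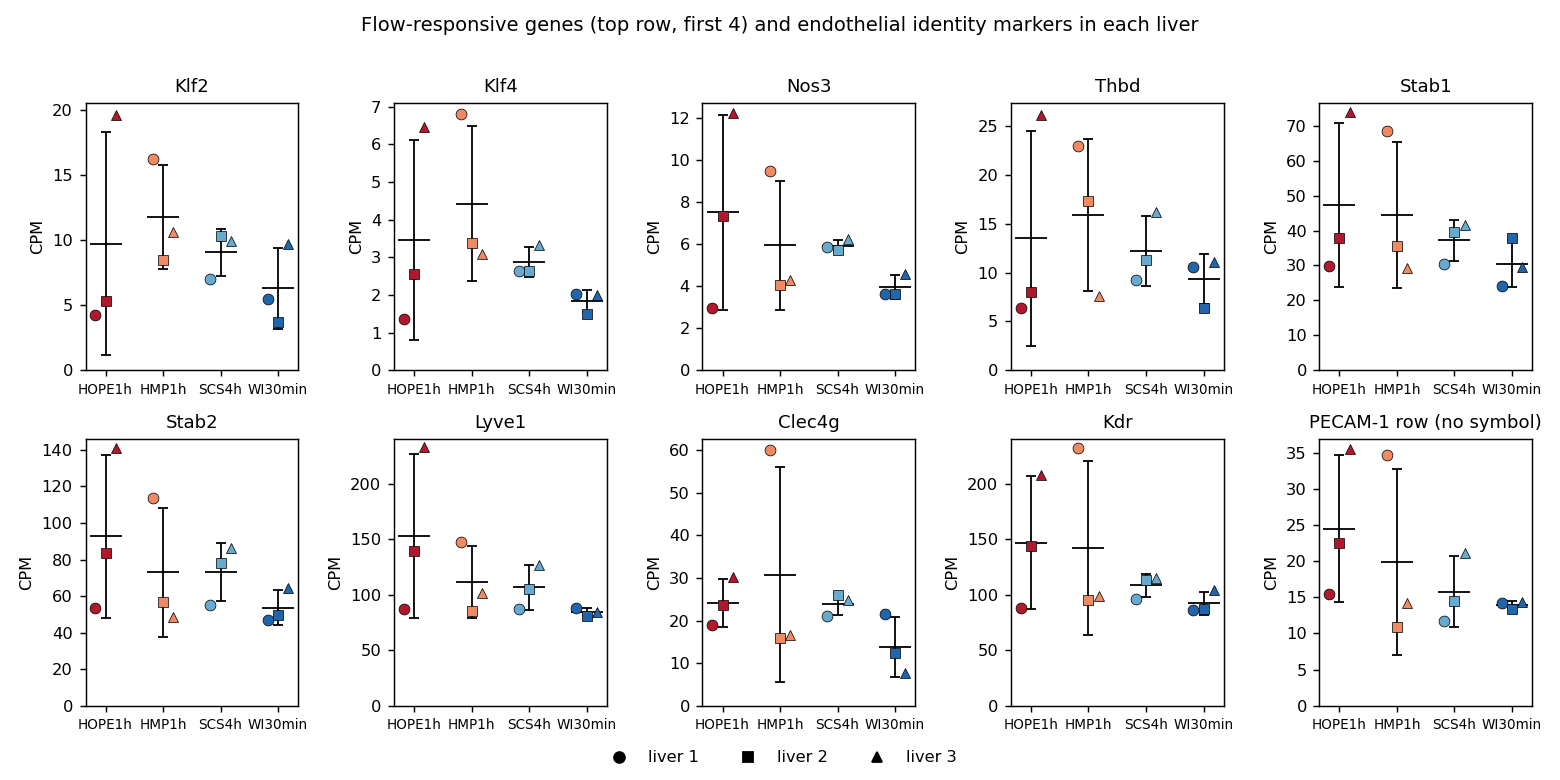
CPM of each member and of the PECAM-1 row in every liver, by group, with HOPE 1 h at the left and WI 30 min at the right of each panel. Points are livers (shape gives the liver's number), the horizontal line is the group mean and the bar its SD (n = 3). HMP liver 1 and HOPE liver 3 are the highest points in all 9 members.

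HMP liver 1 and HOPE liver 3 were the 2 highest of the 12 livers for all 9 members, which held for 1618 of the 13687 tested genes (11.8%). Relative to the median of the other 10 livers, the flow-responsive members were 2.09-fold (Klf2) to 2.62-fold (Klf4) higher in HMP liver 1 and 2.49-fold (Klf4) to 2.76-fold (Nos3) higher in HOPE liver 3. The identity members were 1.69-fold (Lyve1) to 3.01-fold (Clec4g) and 1.51-fold (Clec4g) to 2.67-fold (Lyve1) higher in the same livers. Clec4g and Lyve1 put the 2 livers in opposite order. Since both livers are perfused and were the highest for every member, leaving them out lowers the level of the perfused groups by construction, and the values without them do not locate a difference.

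Other non-parenchymal lists were also high in these livers. The 20 other endothelial markers summed to 1754 CPM in HOPE liver 3 and 1549.7 CPM in HMP liver 1, against 709 to 1113 CPM in the other 10. By group this sum was 728 to 1754 CPM in HOPE livers, 791 to 1549.7 CPM in HMP livers, 729 to 1005 CPM in SCS livers and 709 to 757 CPM in WI livers. The Kupffer cell list, with 10 of its 11 genes in the table, summed to 1113 CPM in HOPE liver 3 and 1808 CPM in HMP liver 1, against 484 to 765 CPM. For the 9 stellate cell genes the sums were 1204 CPM and 1820.4 CPM, against 525 to 1016 CPM, and for the 6 bile duct genes 32.6 CPM and 25.3 CPM, against 14.02 to 22.04 CPM. The 10 hepatocyte genes summed to 138850.4 CPM and 129719 CPM, each the lowest of its group. The other 10 livers ranged from 123905 to 198166 CPM, with a median of 165869 CPM. No gene of these lists that is in the table was at 0 in all livers. The part of cell composition in the members' levels was not tested apart from the covariate fit given with each comparison.

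The 6 perfused livers were first compared with the 6 unperfused livers. The unperfused livers include the WI livers, which had no cold storage. Perfusion, cold and time after death therefore cannot be told apart here. All 9 members were on average higher in perfused livers (54.7% of tested genes were), and none passed the test. Klf4 averaged 3.94 ± 2.19 CPM in perfused and 2.36 ± 0.648 CPM in unperfused livers (SD, n = 6 each), a log2 fold change of 0.77 (SE 0.35, edgeR adjusted p = 0.278). Klf2 averaged 10.8 ± 6.08 CPM in perfused and 7.69 ± 2.74 CPM in unperfused livers, with a log2 fold change of 0.50 (SE 0.37, adjusted p = 0.505). For Nos3 the log2 fold change was 0.47 (SE 0.31) and for Thbd 0.46 (SE 0.36). The identity members ran from 0.40 (Stab2, SE 0.26) to 0.59 (Clec4g, SE 0.34), with Kdr at 0.53 (SE 0.24) and Lyve1 at 0.46 (SE 0.21), and the PECAM-1 row stood at 0.58 (SE 0.29). The median log2 fold change was 0.49 over the flow-responsive and 0.46 over the identity members, against 0.03 over all tested genes. Markers of several other cell types had medians of like size, 0.62 over 10 Kupffer cell genes (10 above 0), 0.41 over 9 stellate cell genes (8 above 0), 0.69 over 5 bile duct genes (5 above 0) and 0.71 over 4 leukocyte genes (4 above 0). The median was 0.02 over 10 hepatocyte genes (6 above 0) and -0.61 over 5 erythroid genes (0 above 0). Without HMP liver 1 and HOPE liver 3 these medians were 0.11, 0.05, -0.06, 0.13, 0.11 and -1.14 in the same order. The part of these cells in the members' values was not tested.

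By edgeR 0 of 9 members were called in that comparison, where 0.27% of tested genes were called higher and 0.753% lower. At an unadjusted p under 0.05 it was 1 member (Klf4), with 8.82% of tested genes higher at that level. DESeq2 called 0 members, against 2.02% of genes higher and 3.4% lower. With HMP liver 1 and HOPE liver 3 left out, the log2 fold changes were 0.13 (SE 0.22) for Klf4, -0.15 (SE 0.25) for Klf2, -0.06 (SE 0.23) for Nos3 and -0.17 (SE 0.26) for Thbd. Those of the identity members then ran from -0.06 (Stab2) to 0.12 (Lyve1). The medians were -0.11 over the flow-responsive and 0.03 over the identity members. With the mean level of 19 other endothelial markers as a covariate on all 12 livers, Klf4 was at 0.02 (SE 0.21), Klf2 at -0.20 (SE 0.29), Nos3 at -0.23 (SE 0.18) and Thbd at -0.20 (SE 0.28), and the identity members at -0.16 to 0.02. The 95% interval of the fold change still reached 1.52 on the log2 scale for Klf4 and 1.32 for Klf2 in the fit of all livers.

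**Figure D2:**
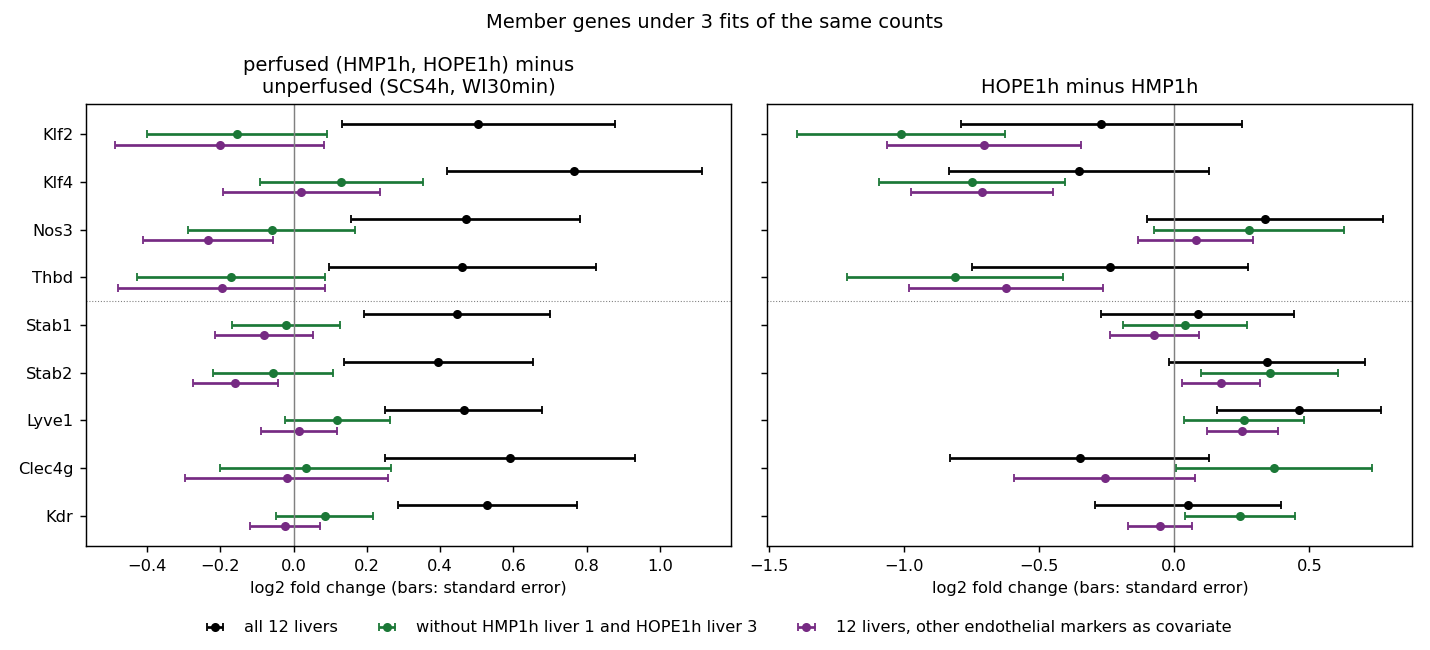
Log2 fold change (x axis, bars are standard errors) of each member, for perfused minus unperfused livers at the left and HOPE 1 h minus HMP 1 h at the right, from the fit of all 12 livers, without HMP liver 1 and HOPE liver 3, and with the other endothelial markers as a covariate. At the left all 9 members sit above 0 in the first fit and around 0 in the others; at the right Klf2, Klf4 and Thbd move further below 0.

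What oxygen added to perfusion was asked by comparing HOPE with HMP livers. Their stated protocols differed in oxygenation, and the study names an oxygenator for HOPE and none for HMP. Klf2, Klf4 and Thbd were on average lower in HOPE livers and Nos3 was higher, with spreads that overlapped. Klf2 averaged 9.74 ± 8.57 CPM in HOPE and 11.8 ± 4.00 CPM in HMP livers (SD, n = 3 each), a log2 fold change of -0.27 (SE 0.52). Klf4 averaged 3.46 ± 2.66 CPM in HOPE and 4.42 ± 2.06 CPM in HMP livers, at -0.35 (SE 0.48). Thbd was at -0.24 (SE 0.51) and Nos3 at 0.34 (SE 0.44). Of the identity members Lyve1 was at 0.46 (SE 0.30), Stab2 at 0.34 (SE 0.36), Stab1 at 0.09 (SE 0.36), Kdr at 0.05 (SE 0.34) and Clec4g at -0.35 (SE 0.48). In all, 5 of 9 members were above 0, as were 49% of tested genes, and 0 members and 0% of genes in either direction were called by edgeR. DESeq2 called 0 members, against 0.0511% of genes higher and 0.0584% lower, and 0 members had an unadjusted edgeR p under 0.05.

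Each group held 1 of the 2 high livers, and the comparison without them rests on 2 livers a group. Klf2 was then at 4.27 and 5.33 CPM in HOPE livers, against 8.50 and 10.6 CPM in HMP livers, a log2 fold change of -1.01 (SE 0.39, edgeR adjusted p = 0.529). Thbd was at -0.81 (SE 0.40, adjusted p = 0.586) and Klf4 at -0.75 (SE 0.35, adjusted p = 0.578). Nos3 was at 0.28 (SE 0.35), and the 5 identity members were all above 0, from 0.04 (Stab1) to 0.37 (Clec4g), with a median of 0.26. With the endothelial covariate on all 12 livers, Klf4 was at -0.71 (SE 0.26, edgeR adjusted p = 0.472), Klf2 at -0.70 (SE 0.36) and Thbd at -0.62 (SE 0.36), and Nos3 at 0.08 (SE 0.21). No member passed the adjusted threshold in these fits. The difference between the flow-responsive and the identity members was not tested.

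Perfused livers were next set against static storage, with the SCS livers shared by both comparisons. In HOPE against SCS livers all 9 log2 fold changes were above 0 (55.1% of tested genes were), from 0.02 (Clec4g, SE 0.48) to 0.53 (Lyve1, SE 0.30), with Klf2 at 0.11 (SE 0.52) and Nos3 at 0.34 (SE 0.44). EdgeR called 0 members and 0% of genes in either direction, and 0 members had an unadjusted p under 0.05. DESeq2 called 0 members, giving no adjusted p for Nos3 and Klf4, against 0.205% of genes higher and 1.29% lower. Without HOPE liver 3 and HMP liver 1, Klf2 was at -0.92 (SE 0.36, edgeR adjusted p = 0.385), Thbd at -0.76 (SE 0.37) and Klf4 at -0.56 (SE 0.32), so that 3 flow-responsive members changed sign by more than 1 SE. Nos3 was then at -0.21 (SE 0.32) and the identity members at -0.17 to 0.10.

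In HMP against SCS livers, Klf4 was at 0.62 (SE 0.49), Klf2 at 0.38 (SE 0.52), Thbd at 0.39 (SE 0.51) and Nos3 at 0.01 (SE 0.44), and the identity members at 0.00 (Stab2, slightly negative) to 0.39 (Kdr). Of the 9 members 8 were above 0, as were 54.2% of tested genes. EdgeR called 0 members and 0% of genes in either direction, with 0 members at an unadjusted p under 0.05, and DESeq2 called 0 members, against 0.979% of genes higher and 2.22% lower. Without the 2 high livers Klf4 was at 0.19 (SE 0.31) and Klf2 at 0.09 (SE 0.34), while Nos3 was at -0.49 (SE 0.32) and all 5 identity members were below 0, with a median of -0.18.

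The members were then set against warm ischemia alone, in 3 comparisons that share the WI livers. In HOPE against WI livers all 9 members were above 0 (53.3% of tested genes were), from 0.53 (Thbd, SE 0.52) to 0.93 (Nos3, SE 0.44). Lyve1 averaged 153 ± 74.0 CPM in HOPE and 84.3 ± 3.62 CPM in WI livers (SD, n = 3 each), at 0.86 (SE 0.31, edgeR adjusted p = 0.514), and was the 1 member with an unadjusted p under 0.05, where 4.41% of genes were higher. EdgeR called 0 members and 0% of genes in either direction, and DESeq2 called 0 members, against 0.395% of genes higher and 0.314% lower. No member separated the groups. The PECAM-1 row did, being higher in all HOPE than in all WI livers, as were 8.77% of tested genes, at 0.81 (SE 0.41). Without the 2 high livers the identity members stayed above 0, from 0.14 (Stab1) to 0.61 (Clec4g), while Klf2 was at -0.40 (SE 0.36) and Thbd at -0.39 (SE 0.37).

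In HMP against WI livers all 9 members were again above 0 (53.4% of tested genes were). Klf4 averaged 4.42 ± 2.06 CPM in HMP and 1.84 ± 0.297 CPM in WI livers (SD, n = 3 each), at 1.26 (SE 0.50, edgeR adjusted p = 0.307), and Clec4g stood at 1.16 (SE 0.49, edgeR adjusted p = 0.331). These were the 2 members with an unadjusted p under 0.05, where 7.24% of genes were higher. Klf4 was also the 1 member whose groups did not overlap, as was true of 7.57% of genes in that direction. EdgeR called 0 members and 0% of genes in either direction, and DESeq2 called 0 members, against 1.23% of genes higher and 1.6% lower. Without HMP liver 1 and HOPE liver 3, Klf4 kept 0.82 (SE 0.31, edgeR adjusted p = 0.328) and Klf2 stood at 0.61 (SE 0.34), while Clec4g was at 0.24 (SE 0.33).

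In SCS against WI livers, where neither group was perfused, all 9 members were above 0 (52.3% of tested genes were), from 0.23 (Kdr, SE 0.35) to 0.79 (Clec4g, SE 0.49). Klf4 averaged 2.87 ± 0.402 CPM in SCS and 1.84 ± 0.297 CPM in WI livers, at 0.64 (SE 0.50), and Nos3 averaged 5.92 ± 0.261 CPM in SCS and 3.94 ± 0.564 CPM in WI livers, at 0.59 (SE 0.45). These 2 members did not overlap between the groups, as was true of 7.13% of genes in that direction. EdgeR called 0 members and 0% of genes in either direction, with 0 members at an unadjusted p under 0.05, and DESeq2 called 0 members, against 0.095% of genes higher and 0.0146% lower. Red cell genes differed between the groups in all 3 comparisons with WI livers. All 5 tested erythroid genes were lower in every HOPE, HMP and SCS liver than in every WI liver, as were 7.42%, 8.45% and 5.86% of tested genes in HOPE, HMP and SCS against WI livers. Their median log2 fold changes were -1.48, -1.55 and -1.74 in the same order, 0 of them were called by edgeR or DESeq2, and their part in the members' values was not tested.

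To set flow response beside cell share, the mean log2 CPM of the 5 identity members found was subtracted from that of the 4 flow-responsive members in each liver. The result was -3.80, -3.66 and -2.93 in HOPE livers and -3.13, -2.82 and -3.02 in HMP livers, against -3.11, -3.24 and -3.11 in SCS livers and -3.27, -3.65 and -2.87 in WI livers. The lowest values were those of HOPE livers 1 and 2 and WI liver 2, and the high livers lay within the range of the others. Perfused minus unperfused livers came to -0.02 on this scale, HOPE minus HMP livers to -0.47, HOPE minus SCS livers to -0.31 and HMP minus WI livers to 0.27, with a pooled SD within groups of 0.32. Without the 2 high livers HOPE minus HMP came to -0.81. These are descriptions, and no test was run on the difference. RNA of the flow-responsive members from other cells, if any, enters these values as well.

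**Figure D3:**
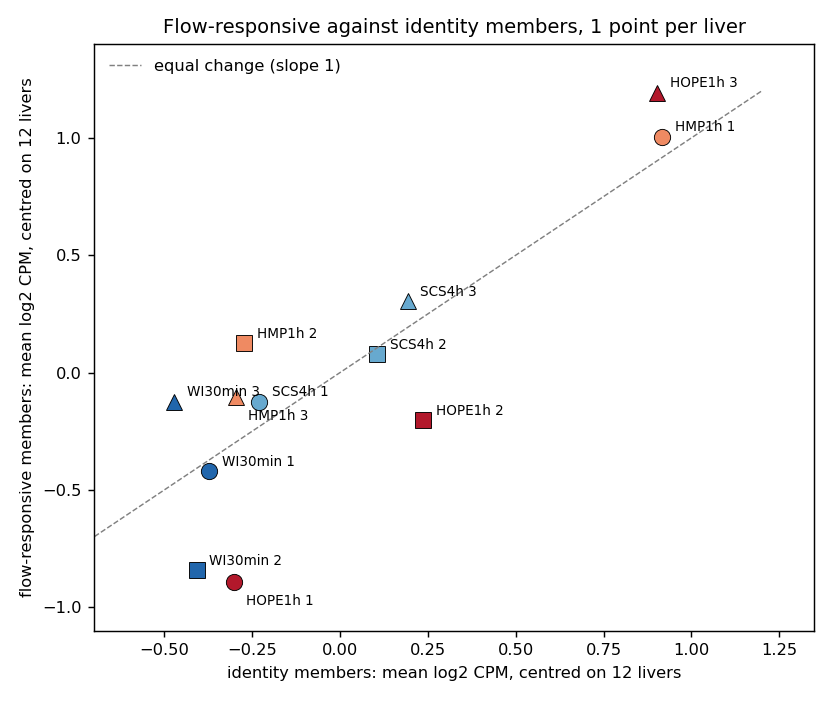
Mean log2 CPM of the 4 flow-responsive members (y axis) against that of the 5 identity members (x axis), each centred on its mean over the 12 livers, with 1 labelled point per liver and a dashed line for equal change. HOPE liver 3 and HMP liver 1 lie at the top right, above the line, and HOPE livers 1 and 2 and WI liver 2 lie below it.

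Across the 12 livers the flow-responsive mean and the identity mean had Pearson's r of 0.86 and Spearman's rho of 0.69, and r of 0.51 over the 10 livers without the high ones. Both means come from the same libraries and share depth and scaling. Member by member, Nos3 had r of 0.92 with the identity mean over 12 livers and 0.79 over 10, Klf4 0.86 and 0.50, Thbd 0.74 and 0.27, and Klf2 0.71 and 0.24. Nos3 thus followed the identity markers also outside the 2 livers, and Klf2 and Thbd did so less closely.

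Each flow-responsive member was also set against the mean of 19 other endothelial markers, in log2 CPM centred over the 12 livers. Klf4 was at -0.66, -0.37 and 0.26 in HOPE livers and at 0.41, 0.52 and 0.30 in HMP livers, against 0.23, -0.02 and 0.16 in SCS livers and -0.12, -0.54 and -0.16 in WI livers. On this scale its HMP values were above all others. Klf4 was the 1 member lower in every HOPE than in every HMP liver (1.91% of tested genes were) and the 1 member higher in every HMP than in every SCS liver (1.77%) and every WI liver (1.42%). In the opposite directions the shares were 0.577%, 5.73% and 20.1%. The subtracted mean was 5.33 log2 CPM in HOPE, 5.19 in HMP, 4.96 in SCS and 4.74 in WI livers. By construction, subtracting it lowers genes in the groups where it is high, so few genes can be higher there. Klf2 was at -0.60, -0.85 and 0.34 in HOPE livers and at 0.14, 0.31 and 0.52 in HMP livers, against 0.09, 0.38 and 0.19 in SCS livers and -0.25, -0.81 and 0.55 in WI livers. Nos3 was at -0.51, 0.21 and 0.27 in HOPE livers and at -0.03, -0.12 and -0.16 in HMP livers, against 0.44, 0.15 and 0.13 in SCS livers and -0.23, -0.23 and 0.09 in WI livers. For Nos3 the SCS livers were thus above all WI livers, as they were for Klf4 (1.1% of tested genes, with 17% in the opposite direction). Every HMP liver was below every SCS liver for Nos3, which also held for Stab2 (5.73%). Thbd ranged from -0.75 to 0.28 in HOPE livers and from -0.43 to 0.86 in HMP livers, against 0.01 to 0.41 in SCS livers and -0.52 to 0.26 in WI livers.

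**Figure D4:**
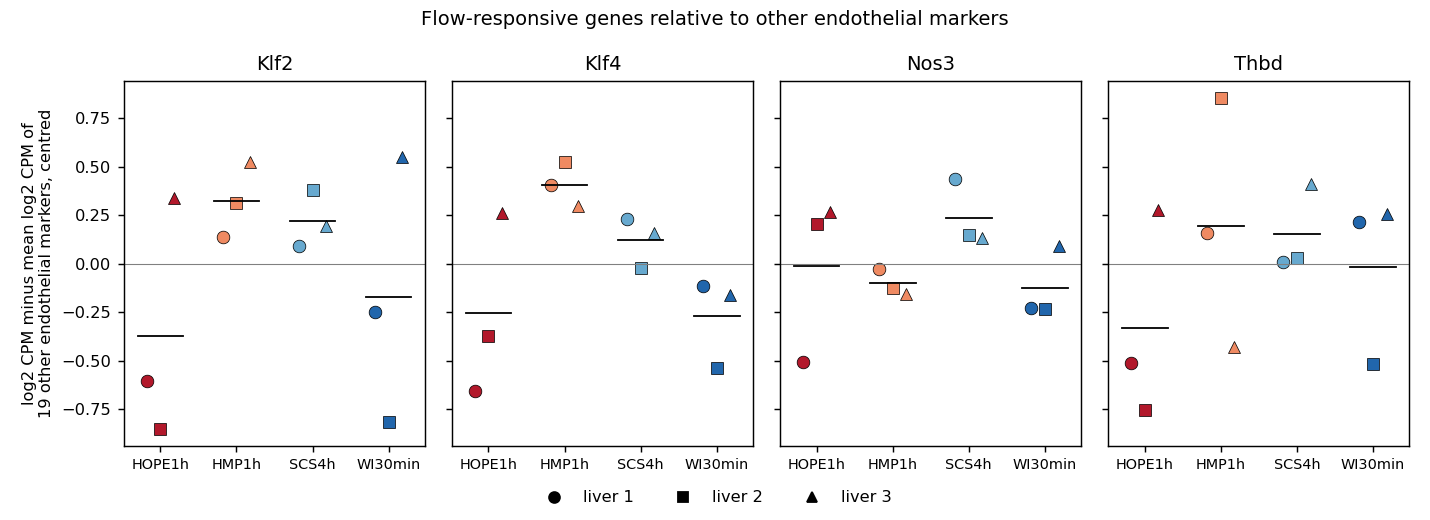
Log2 CPM of each flow-responsive member minus the mean log2 CPM of 19 other endothelial markers, centred over the 12 livers (y axis), by group. Points are livers and lines are group means (n = 3). In Klf4 the 3 HMP livers lie above all other livers, and HOPE livers 1 and 2 lie low in Klf2, Klf4 and Thbd.

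The wider pathway was read from lists of known genes, in perfused against unperfused livers, where perfusion and cold storage are mixed. Of all tested genes 54.7% were above 0 in that comparison. At an unadjusted edgeR p under 0.05, 8.82% were higher and 8.85% lower, and DESeq2 called 2.02% higher and 3.4% lower. Of 17 tested genes that sense flow or relay it, 13 were above 0, with a median log2 fold change of 0.09, and 0 were called by edgeR or DESeq2, with 2 at an unadjusted p under 0.05. Piezo1, a stretch-gated channel, was at 0.45 (adjusted p = 0.288) and Notch1, a receptor that flow activates in arteries, at 0.39 (adjusted p = 0.251). Of 14 other genes that steady flow raises, 13 were above 0, with a median of 0.35, and 0 were called by edgeR, with 6 at an unadjusted p under 0.05 (5 higher, 1 lower). Dusp1, a phosphatase that ends MAP kinase signals, was at 0.74 (edgeR adjusted p = 0.133, DESeq2 adjusted p = 0.0274) and was the 1 gene of this list that DESeq2 called, and Cited2, a brake on hypoxia signalling, at 0.72 (adjusted p = 0.182). Without the 2 high livers the medians were -0.01 and 0.11. Piezo1 was then at 0.12 (SE 0.15) and Notch1 at 0.11 (SE 0.10), while Dusp1 was at 0.72 and Cited2 at 0.94.

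Genes that KLF2 or KLF4 lower in cultured endothelium had log2 fold changes above 0 in perfused livers for 11 of 12 tested, with a median of 0.66 (0.37 without the 2 high livers). Of all tested genes 54.7% were above 0. EdgeR called 0 of the list, with 4 higher at an unadjusted p under 0.05 (8.82% of tested genes were). DESeq2 called 3 of the list higher, against 2.02% of tested genes. Vwf, the clotting factor carrier von Willebrand factor, was at 17.8, 16.5 and 33.5 CPM in HOPE livers and at 36.3, 11.7 and 11.3 CPM in HMP livers, against 10.2, 9.27 and 10.7 CPM in SCS livers and 7.05, 9.68 and 10.2 CPM in WI livers. Its log2 fold change was 1.15 (SE 0.30, edgeR adjusted p = 0.0917, DESeq2 adjusted p = 0.00595), and 0.57 without the 2 high livers. Icam1, an adhesion receptor for leukocytes, was at 32.4 to 44.7 CPM (median 35.9) in perfused and 19.3 to 31.9 CPM (median 27.7) in unperfused livers, at 0.47 (edgeR adjusted p = 0.0969, DESeq2 adjusted p = 0.0273) and 0.48 without them. Both genes were higher in all 6 perfused than in all 6 unperfused livers, as were 0.621% of tested genes, and both passed only with DESeq2. Vwf also marks vessels other than sinusoids, and the list of vascular and lymphatic endothelium had 8 of 8 tested genes above 0, with a median of 0.78, and 0.06 without the 2 high livers.

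Immediate early genes, which answer many stimuli within minutes, had 16 of 16 tested genes above 0 in perfused livers (54.7% of all tested genes were). Their median was 0.56 (0.36 without the 2 high livers), and DESeq2 called 5 of them higher, against 2.02% of tested genes. Ccn1, a matrix protein that mechanical strain raises, was the 1 gene that edgeR called in this list, where 0.27% of tested genes were called higher. It was at 53.4, 82.8 and 95.6 CPM in HOPE livers and at 143, 44.5 and 65.2 CPM in HMP livers, against 32.9, 38.0 and 46.4 CPM in SCS livers and 32.5, 21.4 and 32.9 CPM in WI livers, a log2 fold change of 1.26 (SE 0.26, edgeR adjusted p = 0.0475, DESeq2 adjusted p = 0.000239). Without the 2 high livers it was at 0.87 (SE 0.18, adjusted p = 0.0784) and was not called. Zfp36, which speeds the decay of inflammatory mRNAs, was at 0.69 (edgeR adjusted p = 0.0931, DESeq2 adjusted p = 0.00937). In HOPE against HMP livers 14 of these 16 genes were below 0, with a median of -0.46, where 49% of all tested genes were above 0. Of the 16, 6 were lower in every HOPE than in every HMP liver, as were 4.89% of tested genes, with 0 called by edgeR or DESeq2. At an unadjusted p under 0.05, 5 were lower and 1 was higher, against 3.52% and 3.96% of tested genes. Klf2 and Klf4 are themselves early genes, and both were also below 0 in that comparison.

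Markers along the sinusoid were compared last. In perfused against unperfused livers the 6 genes of the central end had a median of 0.63, with 6 of 6 above 0. The 6 of the portal end had 0.26, with 5 of 6 above 0, and 54.7% of all tested genes were above 0. Kit, a central marker, was at 0.61 (adjusted p = 0.211) and Dll4, a portal Notch ligand, at 0.57 (adjusted p = 0.29). Without the 2 high livers the medians were 0.25 and -0.33, with Kit at 0.20 (SE 0.14) and Dll4 at 0.14 (SE 0.20). In the fit of all livers 0 genes of either list were called by edgeR or DESeq2. At an unadjusted p under 0.05, 3 genes were higher, all of the central end, as were 8.82% of tested genes.

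The genes whose log2 CPM ran most like a member's over the 12 livers were sought among 8957 genes with a symbol and a mean of at least 5 CPM. For Klf2 these were Pltp (r = 0.89), Folr2 (r = 0.88) and Prex2 (r = 0.87). For Stab2 they were Mrc1 (r = 0.95), Ptprb (r = 0.95) and Prex2 (r = 0.95), of which Mrc1 and Ptprb belong to the other endothelial markers. Over the 10 livers without the high ones r was 0.71 to 0.81 for the Klf2 neighbours and 0.84 to 0.86 for those of Stab2.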

How the data were processed

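Raw counts per gene were taken from the table the authors deposited for the whole series, 1 library per liver. Per the study's methods, the authors aligned paired-end reads with Hisat2 v2.0.5 and assembled them with StringTie v1.3.3b, and the submitters' processing notes name Rnor_6.0. Sources used here do not give the counting tool or its use of strand. The FPKM the authors deposited, scaled by gene length and library total, served only to compare genes. The authors' fold changes, p-values and adjusted p-values per pair of groups were not used, and 0 columns of values per liver were unmatched.

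Counts of all 12 livers entered 1 edgeR 4.0.16 quasi-likelihood model (R 4.3.3) with a mean per group, TMM normalization and filterByExpr, in 7 comparisons. Adjusted p-values are Benjamini-Hochberg over 13687 genes, and a gene was called under 0.05. The p-values measure the spread between livers. Log2 CPM had a prior count of 2. Alternatives were DESeq2 1.42.0, RLE scaling, no filter on low counts, fits of the compared groups alone, a block for the replicate number, leaving out each liver, leaving out HMP liver 1 and HOPE liver 3, an endothelial covariate, and an unadjusted p. For flow minus identity they were a prior count of 0.5, a median, and the PECAM-1 row, which was added after seeing the data. The pipeline was tested on simulated data. Named were all members and, from each of the other lists, at most 2 genes with a mean of at least 5 CPM and the smallest p. The text gives a choice of these. The members and lists were chosen with earlier results of these data known. Promoters are those of RefSeq (GRCr8).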

Additional observations from a re-analysis of the deposited data

How the results depend on the processing

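By edgeR or DESeq2 0 members were called in any of the 7 comparisons under any alternative, with counts of 0 to 0 when each liver was left out in turn. In the main fit an unadjusted p under 0.05 gave 1 member in perfused against unperfused, 1 in HOPE against WI and 2 in HMP against WI livers. These counts moved with single livers. Without HOPE liver 1 they were 6 in perfused against unperfused and 6 in HOPE against WI livers. Without HOPE liver 3 both were 0, and HOPE against HMP livers had 3. Without HMP liver 2 or HMP liver 3, perfused against unperfused livers had 4. Of 1188 values of members under alternatives, 1161 kept their sign or moved past 0 by less than their own SE, and 27 moved past 0 by more. Without HMP liver 1 and HOPE liver 3 these were, as log2 fold changes, Clec4g at 0.37 in HOPE against HMP and -0.54 in HMP against SCS, Nos3 at -0.49 in HMP against SCS, Thbd at -0.76, Klf2 at -0.92 and Klf4 at -0.56 in HOPE against SCS, and Thbd at -0.39 and Klf2 at -0.40 in HOPE against WI. Without HOPE liver 3 alone they were Stab1 at -0.39 in HOPE against HMP and Thbd at -0.76, Klf2 at -0.92 and Klf4 at -0.55 in HOPE against SCS. Without HMP liver 1 alone they were Clec4g at 0.56 in HOPE against HMP and -0.54 in HMP against SCS, and Nos3 at -0.49 in HMP against SCS. With the endothelial covariate they were Stab2 at -0.16 and Nos3 at -0.23 in perfused against unperfused, Stab2 at -0.17, Clec4g at -0.41, Thbd at -0.54, Klf2 at -0.66, Nos3 at -0.35 and Klf4 at -0.50 in HOPE against SCS, Thbd at -0.47 and Klf2 at -0.44 in HOPE against WI, and Lyve1 at -0.17 and Nos3 at -0.43 in HMP against SCS. Leaving out each liver in turn gave -0.39 to 0.52 for Stab1 and -0.67 to 0.56 for Clec4g in HOPE against HMP, -0.76 to 0.48 for Thbd, -0.92 to 0.46 for Klf2 and -0.55 to 0.65 for Klf4 in HOPE against SCS, and -0.54 to 0.70 for Clec4g and -0.49 to 0.22 for Nos3 in HMP against SCS. The covariate takes up change shared by endothelial genes by its construction, and leaving out the 2 livers highest in every member lowers the perfused groups by construction. Otherwise the cause was not tested.

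Flow minus identity in HOPE minus HMP livers was -0.81 without the 2 high livers. Leaving out each liver in turn gave -0.74 (without HOPE liver 3) to -0.30 in HOPE minus HMP, -0.58 to -0.14 in HOPE minus SCS, -0.47 to 0.00 in HOPE minus WI (slightly negative), 0.08 to 0.23 in HMP minus SCS, 0.08 to 0.47 in HMP minus WI, -0.09 to 0.30 in SCS minus WI and -0.15 to 0.08 in perfused minus unperfused. Replicate numbers did not pair the livers. Across genes, same-numbered livers had a correlation of deviations of -0.19 to 0.14 (median 0.03), with 1 of 18 pairs over 0.1, and other pairs had -0.23 to 0.33. With the replicate block 0 members were called in each comparison.

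Klf4 and Nos3 had as few as 24 and 52 counts in a liver, and with 3 livers per group the members' SEs were 0.30 to 0.53 on the log2 scale between pairs of groups. A member missing the threshold is therefore not shown to be unchanged.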
